A study of Mus musculus with 12 samples.

Results

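The fetal Leydig cell is the steroid-producing cell of the fetal testis, and the genes described here are those tied to its steroid path and its control: *Star*, *Cyp11a1*, *Hsd3b1*, *Cyp17a1* and *Hsd17b3* for the path from cholesterol to testosterone, *Insl3* for a peptide hormone of the same cell, *Lhcgr* for its gonadotropin receptor and *Nr5a1* for the nuclear receptor upstream of most of them. They were chosen by name, as every probe whose gene name on the array was one of these 8. Probes of that name existed for 7 of the 8, with 10 probes in all among the 41174 of the array, and all 10 passed the filter on dim probes. *Insl3* had no probe of its own name and is described through probes that carry its transcript's accession under the name *Jak3*. The arrays measured 29182 named genes, of which 18853 passed the filter and were tested.

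Steroid synthesis starts when the StAR protein, encoded by *Star*, carries cholesterol to the inner mitochondrial membrane, where the side-chain cleavage enzyme encoded by *Cyp11a1* makes pregnenolone. The enzymes encoded by *Hsd3b1* and *Cyp17a1* turn pregnenolone into androstenedione, and the enzyme encoded by *Hsd17b3* reduces androstenedione to testosterone. In the fetal mouse testis this last step takes place largely in Sertoli cells, the supporting cells that surround the germ cells, so *Hsd17b3* belongs to the fetal Leydig pathway without being a product of the Leydig cell there. *Nr5a1*, encoding the nuclear receptor also known as SF1 or AD4BP, is active in Leydig cells, Sertoli cells and the somatic cells of the ovary alike, whereas fetal ovaries are known to make little steroid.

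RNA came from whole gonads of mouse embryos of mixed background at E14.5, after tamoxifen had been given to the mothers at E9.5 and E10.5. There were 4 groups of 3 gonad samples, each hybridised to a one-colour Agilent array. The control testes were all Smad4Flox/+ StellaMerCreMer Stra8+/-. The control ovaries differed among themselves, since replicate 1 was Smad4Flox/+ StellaMerCreMer Stra8+/-, replicate 2 was Smad4Flox/+ Stra8+/- without the Cre, and replicate 3 was Smad4Flox/Flox Stra8+/- without the Cre. The *Smad4 (Stella)* ovaries were Smad4flox/floxMerCreMer Stra8+/-, and the DKO (double mutant) ovaries were Smad4flox/floxMerCreMer Stra8-/-. All controls and the *Smad4 (Stella)* ovaries were therefore heterozygous for *Stra8*, a gene that germ cells need to enter meiosis. *Smad4* encodes the shared mediator of TGF-beta and BMP signals, and the Cre is driven by the germ cell element of *Stella* and needs tamoxifen, with an efficiency that varies, so these alleles remove *Smad4* from germ cells and leave the steroid-producing somatic cells unrecombined by design. The DKO ovaries carry Stra8-/- in all cells by their label, while the arrays measured a remaining *Stra8* signal, given in the next paragraph.

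Levels are given as log2 of the probe's processed intensity minus the 75th percentile of the same array, so that 0 is the 75th percentile and 1 unit is 2-fold. A gene was called changed when the limma adjusted p was under 0.05 and the difference at least 1.5-fold. The 75th percentile lay between 476 and 997 intensity units, between 58.8% and 70.7% of the probes were well above background on each array, and no probe was saturated. The number of arrays, 3 a group, limits the precision. The arrays lay on 3 slides: slide 1 held the 3 testes and control ovary 1, slide 2 held control ovaries 2 and 3 with DKO ovaries 1 and 2, and slide 3 held the 3 *Smad4 (Stella)* ovaries with DKO ovary 3. *Stra8*, measured by 1 probe, read 6.71, 6.16 and 6.46 in control ovaries, 5.61, 5.28 and 5.38 in DKO ovaries and -2.98, -2.56 and -2.32 in testes. It was lower in DKO than in control ovaries by -1.02 (limma adjusted p = 0.00271) and well above the testes, so the probe does not show a complete loss of the transcript in the ovaries labelled DKO. Where the probe lies relative to the deleted part was not given in the sources used here. *Smad4* mRNA differed by -0.13 in DKO and -0.03 in *Smad4 (Stella)* ovaries (adjusted p = 0.563 and 0.910), a whole-gonad value that does not check a deletion restricted to germ cells.

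The probes on which the largest differences rest are shown first, because most of them are joined from parts of the transcript that lie apart in the genome, so that they match the spliced mRNA. Each is 60 bases, in lower case and 5′ to 3′ as deposited, with its mm9 position in parentheses. The *Cyp17a1* probe covers 614 bases of genome, the *Hsd17b3* probe 799, and the 2 *Cyp11a1* probes designed on the RefSeq transcript 538 and 471.
Cyp17a1 (chr19:46742594-46743207, minus strand): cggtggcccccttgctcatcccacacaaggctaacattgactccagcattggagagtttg
Hsd17b3 (chr13:64159943-64160741, minus strand): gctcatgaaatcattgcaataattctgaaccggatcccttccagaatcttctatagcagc
Cyp11a1, first probe (chr9:57873365-57873902, plus strand): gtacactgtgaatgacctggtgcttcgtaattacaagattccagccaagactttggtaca
Cyp11a1, second probe (chr9:57874074-57874544, plus strand): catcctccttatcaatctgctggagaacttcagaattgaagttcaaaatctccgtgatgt
The other member probes each lie in 1 stretch of 60 bases. *Star* has a probe at chr8:26924735-26924794 and another at chr8:26925460-26925519, *Hsd3b1* at chr3:98656330-98656389, *Lhcgr* at chr17:89141300-89141359 and *Nr5a1* at chr2:38549021-38549080. One more *Cyp11a1* probe, at chr9:57869600-57869659, was designed on a cDNA clone rather than on the RefSeq transcript. *Hsd3b1* belongs to a family of near-identical genes, so its probe may also take up RNA of its paralogs.

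The stretch upstream of each start was read for CAAGG, the core of the sites bound by the *Nr5a1* protein, since these genes move together between testis and ovary. RefSeq promoters (GRCm38.p6) were at hand for 6 starts of 5 members (*Cyp11a1*, *Hsd3b1*, *Hsd17b3*, *Lhcgr* and *Insl3*). The windows with a match are shown, written 5′ to 3′ on the gene's strand up to the base before the start, with the match in capitals. For *Insl3*, whose window lies within the span of *Jak3*, only 29 bases around 1 match are printed. The capitals are CAAGG itself, or CCTTG where the match lies on the opposite strand. For *Hsd17b3* and *Lhcgr* the last 61 and 45 bases of the window, which RefSeq also places inside the gene from an earlier start, were left off.
Hsd3b1 (chr3:98859795-98860044, minus strand): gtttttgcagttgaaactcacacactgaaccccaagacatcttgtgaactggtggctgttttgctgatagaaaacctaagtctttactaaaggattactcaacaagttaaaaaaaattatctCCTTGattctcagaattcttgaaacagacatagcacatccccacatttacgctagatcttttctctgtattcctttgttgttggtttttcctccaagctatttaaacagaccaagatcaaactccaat
Hsd17b3 (chr13:64089263-64089451, minus strand): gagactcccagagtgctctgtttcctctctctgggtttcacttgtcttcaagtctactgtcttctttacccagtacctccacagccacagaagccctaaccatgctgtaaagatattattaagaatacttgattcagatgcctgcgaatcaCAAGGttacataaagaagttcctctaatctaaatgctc
Lhcgr (chr17:88792060-88792264, minus strand): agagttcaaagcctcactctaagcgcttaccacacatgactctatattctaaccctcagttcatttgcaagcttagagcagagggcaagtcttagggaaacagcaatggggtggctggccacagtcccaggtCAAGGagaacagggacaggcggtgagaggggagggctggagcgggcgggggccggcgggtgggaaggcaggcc
Insl3, around 1 of its 2 matches (chr8:71689103-71689131, plus strand): gggagaggacttCAAGGtcccaagctgga
Counted from the start, with -1 the base before it, the matches covered bases -128 to -124 in *Hsd3b1*, -99 to -95 in *Hsd17b3*, -118 to -114 in *Lhcgr*, and -137 to -133 and -57 to -53 in *Insl3*. Neither *Cyp11a1* window held the letters. A match is a description of the letters and no sign of binding: 4 of 5 members held CAAGG on either strand in 250 bases, against 46.02% of 32851 RefSeq promoter windows of that length. The longer form CAAGGTCA, which contains CAAGG, was in none of the 5 members and in 1.33% of all windows.

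All 7 steroid genes with a probe were higher in control testes than in control ovaries, from 2.77-fold for *Nr5a1* to at least 158-fold for *Cyp11a1*. All 7 were called higher and 0 lower, where 17.2% of all tested genes were called higher and 16.8% lower. The 3 testes and the 3 control ovaries did not overlap for any of the 7, which was so for 58.3% of all genes. Their median log2 difference was 5.27, against 0.02 over all tested genes. *Cyp11a1* and *Hsd17b3* passed the filter on dim probes only through the testes. The filter thus favoured a higher testis level for these genes, and they add no support to the counts. The 3 testes were on slide 1 with only control ovary 1, and within that slide the differences from that 1 ovary ran from 1.80 for *Nr5a1* to 8.59 for *Cyp11a1*. With a normexp background correction, which lifts dim values by an offset of 50, 6 of 7 were called and the differences ran from 1.17 for *Nr5a1* to 5.56 for *Cyp17a1*. In whole gonads, fewer cells of a type and less RNA per cell cannot be told apart.

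**Figure D1:**
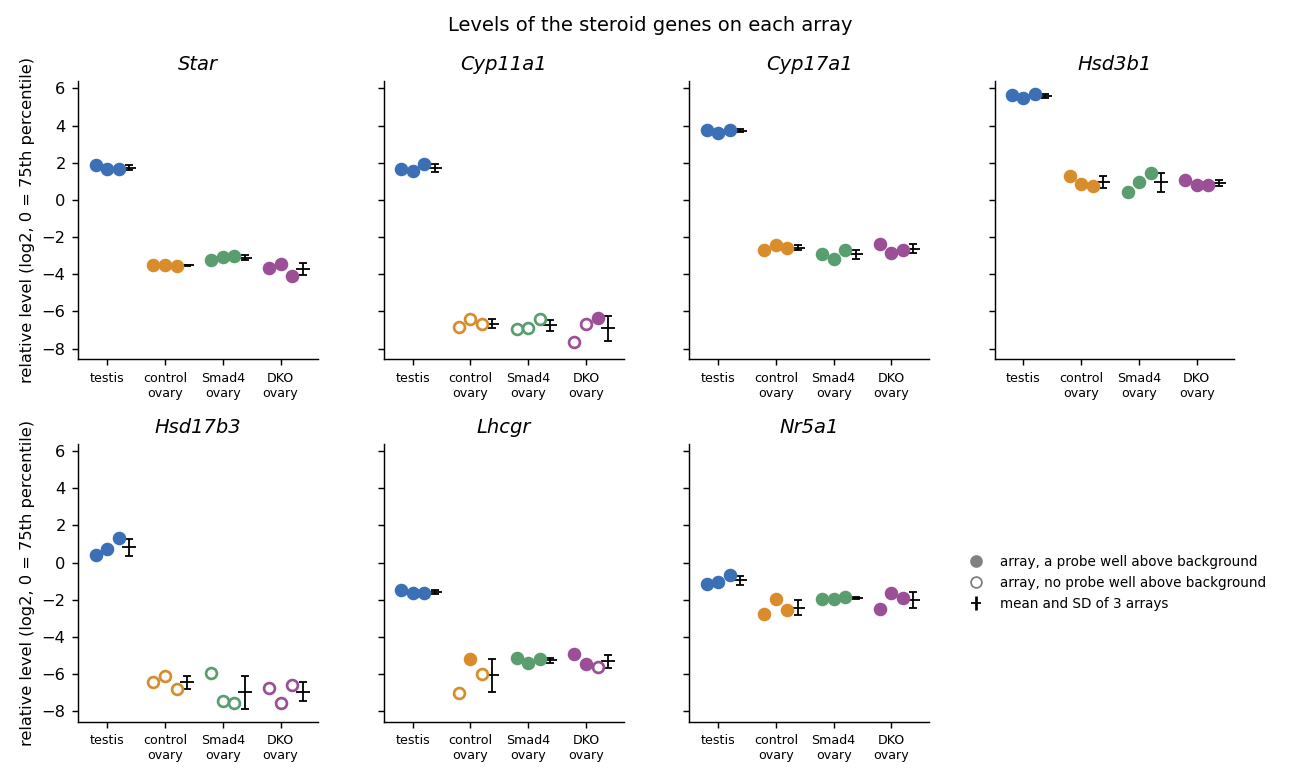
Level of each of the 7 genes on each of the 12 arrays (log2 intensity relative to the array's 75th percentile), with 1 panel a gene, 1 circle an array, open where no probe was well above background, and a cross with bars for the mean and SD of each group of 3. The 3 testes sit above all 9 ovaries in every panel, by the most in Cyp11a1 (testis mean 1.72) and by the least in Nr5a1 (testis mean -0.95), while the 3 kinds of ovary lie close to each other.

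For the first step, *Star* read 1.88, 1.67 and 1.67 in the testes. Control ovaries read -3.51, -3.52 and -3.54, *Smad4 (Stella)* ovaries -3.25, -3.08 and -2.99, and DKO ovaries -3.65, -3.44 and -4.09. All testes were high and all 9 ovaries low, with no overlap. The testis mean of 1.74 ± 0.12 (SD, n = 3) exceeded the control ovary mean of -3.52 ± 0.02 by 5.27 (SE 0.15), or 38.5-fold (limma adjusted p = 6.74e-09). Both *Star* probes were well above background in every ovary except DKO ovary 3, where 1 of the 2 was. Its low ovarian level was thus a measured one apart from that probe.

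*Cyp11a1*, which encodes the enzyme that commits cholesterol to steroid synthesis, read 1.67, 1.55 and 1.95 in the testes and -6.87, -6.43 and -6.67 in the control ovaries as the mean of its 3 probes. For *Smad4 (Stella)* ovaries the values were -6.93, -6.91 and -6.43, and for DKO ovaries -7.66, -6.67 and -6.37. None of the 3 probes was well above background in any control or *Smad4 (Stella)* ovary, and only 1 probe was, on DKO ovary 3. The ovarian values are then bounds. A fold is given as "at least" where no array of a group was well above background: the mean of the other group was set against the higher, array by array, of the dim value and the lowest signal well above background. On that count *Cyp11a1* was at least 158-fold higher in the testes (fitted log2 difference 8.38, limma adjusted p = 2.17e-08).

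The 3 *Cyp11a1* probes differed in brightness. The first probe shown above read 3.40, 3.55 and 3.90 in the testes and was at least 588-fold higher there than in control ovaries. The second read 4.17, 4.08 and 4.29 and was at least 871-fold higher. The probe on the cDNA clone read -2.56, -2.99 and -2.35, and its difference was at least 7.74-fold, so the mean over the 3 probes understates what the RefSeq probes measured.

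**Figure D2:**
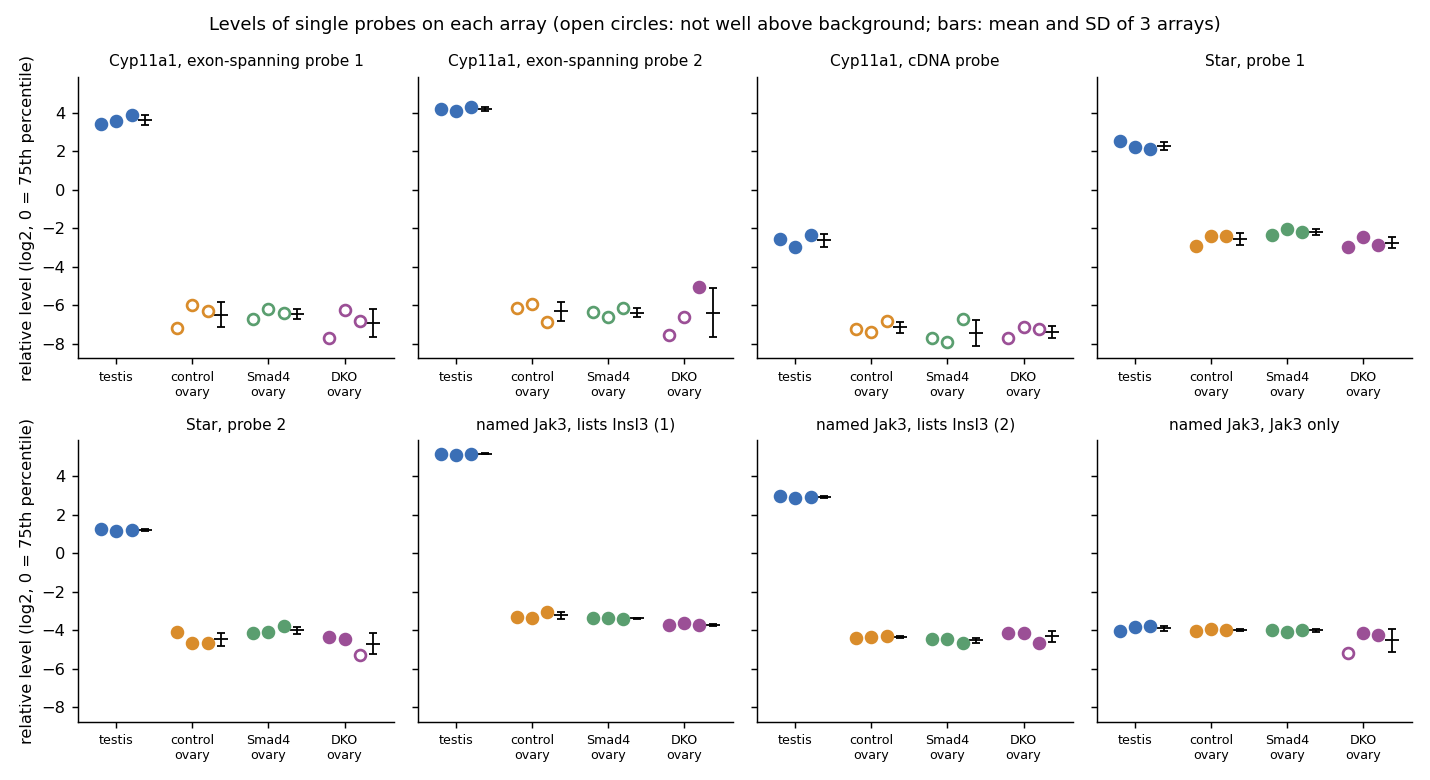
Level of each of the 3 Cyp11a1, 2 Star and 3 Jak3-named probes on each array (log2 intensity relative to the array's 75th percentile), with open circles for spots not well above background and bars for the mean and SD of 3 arrays. All probes separate testes from ovaries except the Jak3 probe that does not list Insl3, and the Cyp11a1 probe on the cDNA clone sits lowest of its gene in the testes.

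The next enzymes stood high in the testes as well. *Cyp17a1*, which encodes the enzyme that makes androgen precursors, read 3.77, 3.63 and 3.76 in the testes. Control ovaries had -2.70, -2.41 and -2.59, *Smad4 (Stella)* ovaries -2.93, -3.19 and -2.68, and DKO ovaries -2.38, -2.85 and -2.69. It was well above background on all 12 arrays, and the testes lay far above the ovaries, which overlapped each other. The testis mean of 3.72 ± 0.08 exceeded the control ovary mean of -2.57 ± 0.15 by 6.29 (SE 0.16), or 78.0-fold (limma adjusted p = 4.18e-09).

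*Hsd3b1* read 5.67, 5.48 and 5.68 in the testes. Control ovaries stood at 1.30, 0.84 and 0.74, *Smad4 (Stella)* ovaries at 0.44, 0.94 and 1.45, and DKO ovaries at 1.07, 0.79 and 0.81. All 9 ovaries read above 0, the 75th percentile of their arrays, and the testes were higher still without overlap. The difference was 4.65 (SE 0.23), or 25.1-fold (limma adjusted p = 2.02e-07).

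*Hsd17b3*, for the last step to testosterone, read 0.43, 0.71 and 1.30 in the testes. Control ovaries read -6.45, -6.11 and -6.78, *Smad4 (Stella)* ovaries -5.96, -7.48 and -7.54, and DKO ovaries -6.76, -7.54 and -6.58, and none of the 9 was well above background. It was at least 84.4-fold higher in the testes than in the control ovaries (fitted log2 difference 7.26, limma adjusted p = 5.76e-07). *Cyp11a1* and *Hsd17b3* were the members not well above background on any control ovary array. *Star*, *Cyp17a1*, *Hsd3b1* and *Nr5a1* were well above background on every array, *Star* by only 1 of its 2 probes on DKO ovary 3.

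*Lhcgr*, which encodes the receptor for luteinising hormone, read -1.46, -1.66 and -1.65 in the testes. Control ovaries read -6.99, -5.20 and -5.99, *Smad4 (Stella)* ovaries -5.16, -5.40 and -5.19, and DKO ovaries -4.94, -5.43 and -5.60. The testes did not overlap the ovaries, and the control ovaries spread widely around a level at the edge of detection: control ovary 2 alone of its group was well above background, as were 3 of 3 *Smad4 (Stella)* and 2 of 3 DKO ovaries. The difference of testis from control ovary was 4.47 (SE 0.36), or 22.2-fold (limma adjusted p = 4.32e-06), a fold that rests on 2 control values not well above background. With normexp it was 1.71 and not called (adjusted p = 0.0598).

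*Nr5a1* had the smallest difference of the 7. The testes read -1.15, -1.03 and -0.68 and the control ovaries -2.75, -1.98 and -2.53. *Smad4 (Stella)* ovaries read -1.95, -1.95 and -1.84, and DKO ovaries -2.49, -1.65 and -1.90. The testes were the highest 3 arrays, and all ovaries were well above background. Testis exceeded control ovary by 1.47 (SE 0.24), or 2.77-fold (limma adjusted p = 5.55e-04).

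*Insl3* encodes the Leydig cell hormone that guides the first phase of testis descent. On these arrays 2 probes named *Jak3*, after a cytokine receptor kinase, list the *Insl3* transcript. RefSeq (GRCm38.p6) ends both genes at the same base, with *Jak3* spanning chr8:71676383-71690577 and *Insl3* chr8:71689252-71690577, so the 2 probes cannot be assigned to either gene from their position alone. The first 30 of the 60 bases of each are printed, with the probe's mm9 position.
First Jak3/Insl3 probe (chr8:74214308-74214367, plus strand): ctcctggctatgtcattgcaacaacccagt
Second Jak3/Insl3 probe (chr8:74214085-74214144, plus strand): tggctagagcagagacatctcctgcacgcg
The first read 5.17, 5.12 and 5.17 in the testes and between -3.76 and -3.06 over the 9 ovaries, 337-fold apart from the control ovaries (log2 difference 8.40). The second read 2.99, 2.88 and 2.90 against -4.67 to -4.15, 157-fold apart (7.29). Another *Jak3* probe, at chr8:74210826-74211151 which does not list the *Insl3* transcript, read -4.05, -3.84 and -3.81 in the testes and -4.05, -3.96 and -4.01 in the control ovaries, a difference of 0.11 (limma adjusted p = 0.728). Between the ovaries, the first probe read -3.32, -3.35 and -3.06 in control, -3.39, -3.39 and -3.41 in *Smad4 (Stella)* and -3.74, -3.65 and -3.76 in DKO ovaries. The DKO arrays lay below the others, by -0.47 from the controls (95% interval -0.69 to -0.26, limma adjusted p = 0.00603), under 1.5-fold and so not called. The second probe differed there by 0.04 (-0.27 to 0.35, adjusted p = 0.873). The 2 probes that list *Insl3* separated testis from ovary and the probe that lists *Jak3* alone did not.

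Whether the mutant ovaries took on any of the steroid programme is the question the next comparisons address. In DKO ovaries 0 of the 7 genes were called against control ovaries by limma, 0 had an unadjusted p under 0.05, and 0 had arrays that did not overlap. Of all tested genes, 6.69% were called higher, 7.98% lower, and 32.8% did not overlap. The methods' t-test, adjusted or not, and each other fit tried also called 0, apart from the fit without control ovary 2, given below for *Lhcgr*. The median log2 difference of the 7 was -0.07, against 0.00 over all genes.

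The intervals show what sizes these arrays leave possible for DKO against control ovaries. *Cyp17a1* differed by -0.07 (95% interval -0.42 to 0.28), *Hsd3b1* by -0.07 (-0.59 to 0.44) and *Star* by -0.20 (-0.54 to 0.13). *Nr5a1* differed by 0.41 (-0.12 to 0.93). *Cyp11a1* and *Hsd17b3* were at background in the control ovaries, with fitted differences of -0.24 (-0.89 to 0.41) and -0.51 (-1.45 to 0.44) between dim values. *Lhcgr* had the smallest adjusted p, with a difference of 0.74 (-0.06 to 1.53, adjusted p = 0.177). Without control ovary 2, the 1 control with a detected level, it was 1.17 (adjusted p = 0.0195) and called, and without control ovary 1, the lowest, it was 0.27 (adjusted p = 0.469). Within slide 2, which held 2 arrays of each group, *Lhcgr* differed by 0.41, *Nr5a1* by 0.19 and *Hsd3b1* by 0.14, and the other 4 by -0.02 to -0.70.

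In *Smad4 (Stella)* ovaries 0 of the 7 genes were called against control ovaries by limma, where 0.133% of all genes were called higher and 0.138% lower. An unadjusted p under 0.05 was found for 3 of them. *Star* was at 0.42 (95% interval 0.08 to 0.76, adjusted p = 0.18), *Cyp17a1* at -0.36 (-0.71 to -0.01, adjusted p = 0.238) and *Lhcgr* at 0.81 (0.02 to 1.61, adjusted p = 0.247). The 2 groups did not overlap for *Star* and for *Nr5a1* (0.51, -0.02 to 1.04, adjusted p = 0.269), that is 2 of 7 against 28.1% of all genes. *Hsd3b1* differed by -0.02, *Cyp11a1* by -0.10 and *Hsd17b3* by -0.54, the last 2 between values at background. No slide held arrays of both groups, so slide and group cannot be told apart within a slide here.

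**Figure D3:**
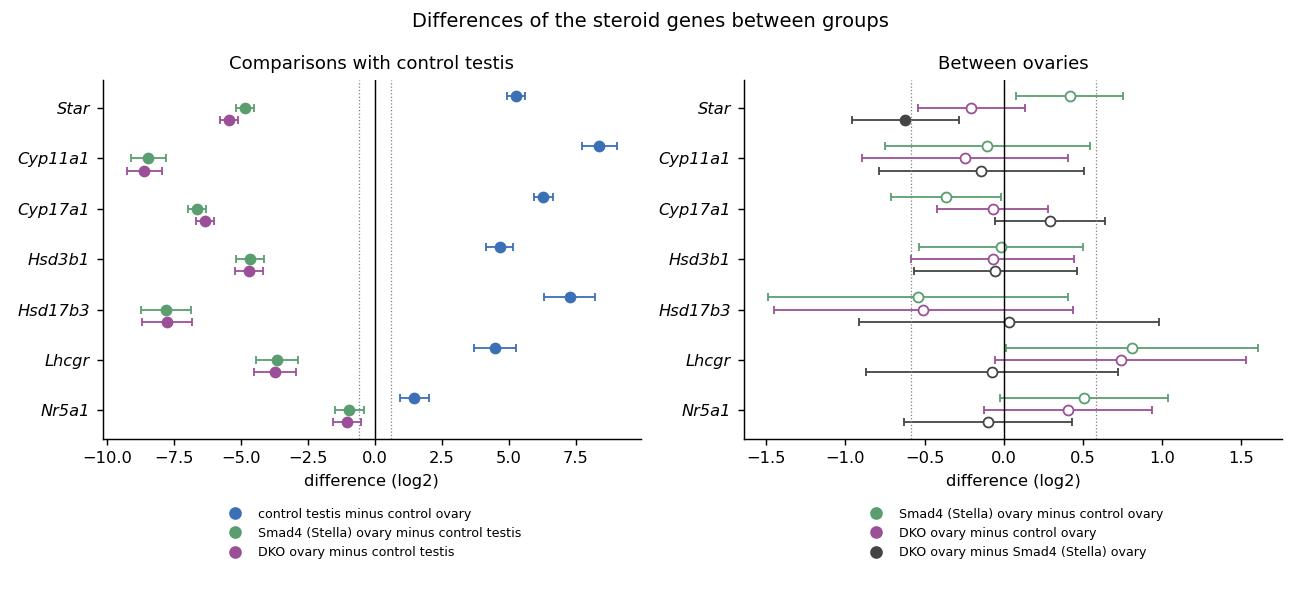
Fitted log2 difference of each gene in 6 comparisons, 3 with the control testes on the left and 3 between ovaries on the right, on different scales. Circles mark the estimate (filled where called), bars its 95% interval and dotted lines 1.5-fold in either direction. The testis-against-ovary differences lie between 1.47 and 8.38 and those between ovaries between -0.62 and 0.81, where Star in DKO against Smad4 (Stella) ovaries is the only filled circle.

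Set directly against each other, DKO and *Smad4 (Stella)* ovaries differed in 1 of the 7 genes. *Star* was lower in DKO ovaries by -0.62 (95% interval -0.96 to -0.28, SE 0.15), or 1.54-fold, just past the limit of 1.5-fold (limma adjusted p = 0.0246). Over all genes 4.38% were called higher and 4.06% lower, and 31.2% did not overlap between these groups, as *Star* did not. The call was lost without DKO ovary 1 (-0.66, adjusted p = 0.0505), *Smad4 (Stella)* ovary 2 (-0.61, 0.0936) or *Smad4 (Stella)* ovary 3 (-0.57, 0.10). Without DKO ovary 3, the lowest array, the difference was -0.44 (0.0383), under 1.5-fold. With a background correction by normexp it was 0.21, in the other direction (0.733). Within slide 3, where 1 DKO and 3 *Smad4 (Stella)* arrays lay, it was -0.99.

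The 2 *Star* probes gave the 3 kinds of ovary the same order of means, but did not vary together within the control ovaries. The probe nearer the gene's start read -2.92, -2.38 and -2.41 in control ovaries, -2.36, -2.05 and -2.18 in *Smad4 (Stella)* and -2.95, -2.43 and -2.88 in DKO ovaries. The other read -4.10, -4.66 and -4.68, then -4.13, -4.10 and -3.81, then -4.34, -4.45 and -5.30, the last not well above background. In control ovary 1 the first probe was the lowest of its group and the second the highest, so that the spread of their mean, 0.02, was smaller than that of each. Taken singly, the probes gave -0.56 (adjusted p = 0.0909) and -0.69 (adjusted p = 0.102) for DKO against *Smad4 (Stella)* ovaries, and neither was called. The other 6 genes differed between these groups by -0.14 to 0.29, with adjusted p from 0.274 to 0.974.

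Against the same 3 control testes, both mutant ovaries were lower in all 7 genes. No slide held a testis and a mutant ovary, so slide and group cannot be told apart within a slide here. In DKO ovaries 7 of 7 were called lower, where 12.7% of all genes were called higher and 13.0% lower, and in *Smad4 (Stella)* ovaries 7 of 7, where 14.7% were called higher and 16.2% lower. *Cyp17a1* was 82.0-fold lower in DKO and 100.4-fold lower in *Smad4 (Stella)* ovaries than in testes, *Star* 44.3-fold and 28.8-fold, *Hsd3b1* 26.3-fold and 25.4-fold, and *Lhcgr* 13.3-fold and 12.6-fold. *Hsd17b3* was at least 88.4-fold and at least 99.5-fold lower. *Cyp11a1* was at least 187-fold lower in *Smad4 (Stella)* ovaries, and its fitted difference in DKO ovaries, with 1 probe measured on 1 array, was -8.62. *Nr5a1* was lower by -1.06 (limma adjusted p = 0.00577) and -0.96 (adjusted p = 0.00806). In *Smad4 (Stella)* ovaries the *Nr5a1* call was lost with the slide as a block (-1.62, adjusted p = 0.0807). These comparisons share the testes with each other and with the first one, and are given side by side only. In the counts, *Cyp11a1* and *Hsd17b3* add no support, since they passed the filter only through the testes.

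The wider pathway was read from 5 lists of genes around these 8. Of their 69 tested genes, 38 (55.1%) were called higher in testes than in control ovaries and 7 (10.1%) lower, against 17.2% and 16.8% of all genes. These counts include genes well above background on 1 side only, such as *Akr1c18*, given below. Genes that passed the filter only through the testes or only through the ovaries add no support to them. In cholesterol supply 10 of 18 genes were higher and 1 lower, with a median log2 difference of 1.0. *Scarb1*, the receptor that takes up lipoprotein cholesterol, was higher by 3.08 (8.46-fold, limma adjusted p = 1.43e-08). *Fdft1*, *Dhcr7* and *Lss*, enzymes of cholesterol synthesis, were higher by 2.26, 1.84 and 1.65. *Soat1*, which esterifies cholesterol for storage, was the 1 lower gene, at -0.92. Among the electron donors of the steroid enzymes 2 of 4 were higher, and both serve the mitochondrial cytochromes: *Fdx1* by 1.79 and *Fdxr* by 1.77.

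Of the other steroid enzymes, 6 of 16 were higher in the testes and 2 lower (median 0.32). *Hsd17b1*, another reductase of the same enzyme class as *Hsd17b3*, read 1.91, 1.91 and 2.08 in the testes against -4.58, -4.48 and -4.89 in control ovaries, 98-fold apart (limma adjusted p = 2.27e-08). *Hsd3b6*, a paralog of *Hsd3b1*, was 10.1-fold higher, and *Hsd11b2*, which inactivates glucocorticoids, 6.53-fold. *Akr1c18*, which inactivates progesterone, was not well above background in any testis and its control ovary level was higher by at least 2.81-fold (adjusted p = 1.21e-05). The paralogs *Hsd3b3*, *Hsd3b4* and *Hsd3b5* and the androgen-activating *Srd5a2* were too dim to test.

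Regulators of Leydig cells moved both ways, with 9 of 16 higher in the testes and 3 lower (median 0.61). *Nr4a1*, an orphan nuclear receptor that acts on steroid gene promoters, was higher by 2.21. *Nr0b1*, which encodes DAX1, an inhibitor of the *Nr5a1* protein, was lower by -1.43, and *Wt1* was lower by -1.19. Of the receptors, ligands and lineage genes 11 of 15 were higher and 1 was lower, *Thbs2* (median 1.37). *Dhh*, the Sertoli cell signal to Leydig progenitors, was higher by 6.62, and *Hhip*, a target of hedgehog signals, by 4.28. *Crhr1*, a receptor on fetal Leydig cells, was higher by 4.83 and *Inha*, an inhibin subunit, by 4.08. *Soat1* and *Thbs2* were named after their values were seen, as the only lower genes of their lists.

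**Figure D4:**
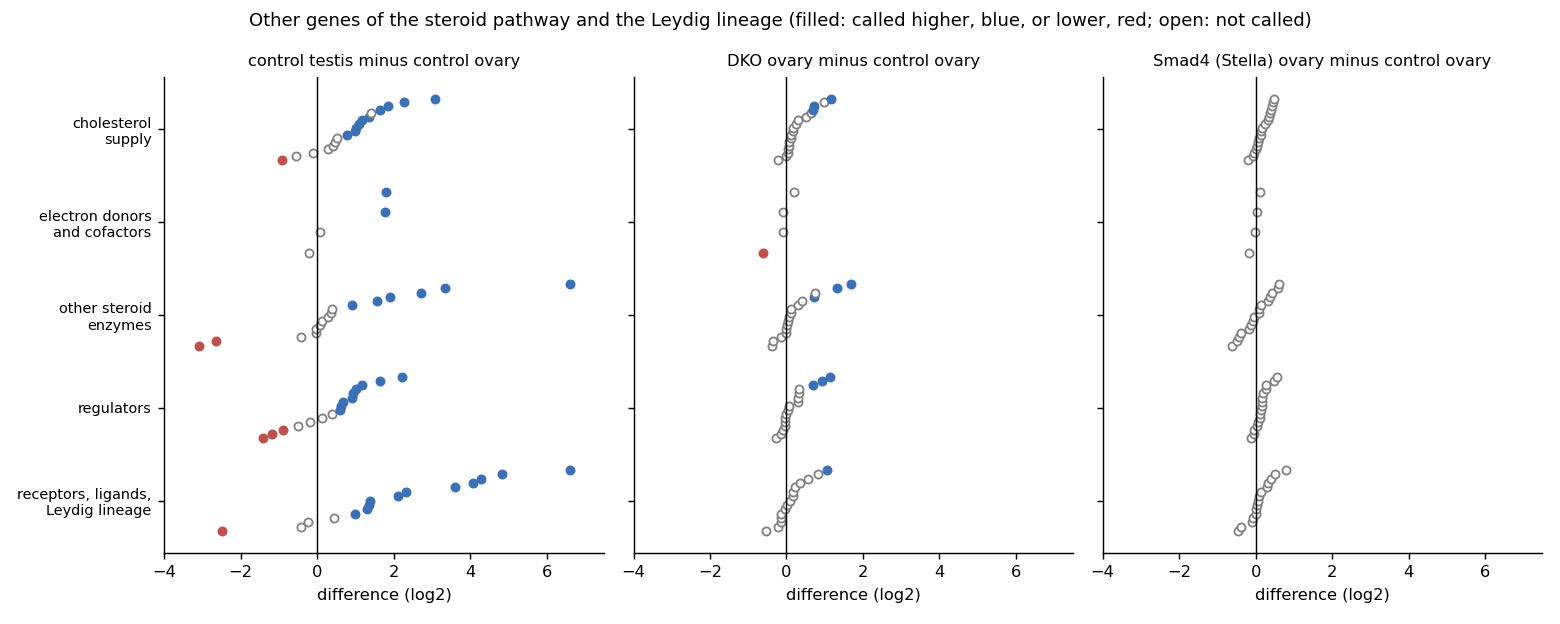
Log2 difference of every tested gene of the 5 pathway lists in 3 comparisons, with 1 point a gene, ordered by size within its list, filled blue where called higher, filled red where called lower and open where not called. In the testis-against-ovary panel the filled points lie mostly to the right of 0, in the DKO panel 10 are blue and 1 is red, and in the Smad4 (Stella) panel no point is filled.

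In DKO against control ovaries 10 of the 69 tested genes of these lists were called higher and 1 lower, against 6.69% and 7.98% of all genes. In cholesterol supply 3 of 18 were higher, with a list median of 0.17: *Insig1*, which holds back the activation of sterol response factors, by 1.17, *Dhcr7* by 0.72 and *Srebf2*, one of those factors, by 0.69. Over 24 alternative settings the count of higher genes ran from 0 to 6, and it was 6 with the slide as a block. For other steroid enzymes, regulators, and receptors, ligands and lineage genes it ran from 0 to 4, 1 to 4 and 0 to 3. *Por*, which supplies electrons to microsomal cytochromes such as the *Cyp17a1* product, was lower by -0.63, the 1 call among 4 electron donors. Of 16 other steroid enzymes 3 were higher. *Cyp19a1*, which encodes the aromatase that makes estrogen from androgen, read -3.74, -4.37 and -2.52 in DKO ovaries against -5.41, -5.39 and -4.88 in control ovaries. *Cyp19a1* was well above background on 3 of 3 DKO and 2 of 3 control ovary arrays. All 3 DKO arrays lay above the controls, and the difference was 1.69 (limma adjusted p = 0.0137). With the slide as a block it was 1.08, or 2.12-fold, and not called (adjusted p = 0.0564). *Hsd11b1* was higher by 1.32 and *Sts* by 0.73. With the slide as a block *Sts* and *Por* were also not called (0.67 and -0.40, adjusted p = 0.116 and 0.0531).

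Among 16 regulators 3 were higher in DKO ovaries. *Nr5a2*, which encodes the nuclear receptor closest to that of *Nr5a1* and binds like sites, read -1.43, -1.29 and -1.35 in DKO ovaries. Control ovaries read -2.28, -2.30 and -2.29, *Smad4 (Stella)* ovaries -2.16, -2.12 and -2.39, and the testes -1.79, -1.87 and -1.43. The DKO arrays lay above all other ovaries, by 0.94 over the controls (limma adjusted p = 4.94e-04). *Nr4a1* was higher by 1.15 and *Cbx2*, a polycomb gene of sex determination, by 0.69. *Ptch1*, the hedgehog receptor, was higher by 1.05, the only call among 15 receptors, ligands and lineage genes. Its control ovary mean was dim, at -5.55, with 2 of 3 arrays well above background. Against *Smad4 (Stella)* ovaries, *Insig1*, *Cyp19a1*, *Nr4a1*, *Nr5a2*, *Cbx2* and *Ptch1* were also called higher in DKO ovaries, by 0.71, 1.74, 1.03, 0.87, 0.74 and 1.43, a comparison that shares the DKO arrays. In *Smad4 (Stella)* against control ovaries, limma called no gene of the 5 lists, and their medians lay between 0.01 and 0.15.

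Markers of the cell types a dissected gonad can hold were read beside these genes. Sertoli markers followed the steroid genes, with 9 of 10 higher in the testes. All 10 were well above background on every testis, but only 7 were on every array of each kind of ovary. Their summed level ran from 6.10 to 6.35 in testes, 1.28 to 1.33 in control, 1.40 to 1.53 in *Smad4 (Stella)* and 1.40 to 1.62 in DKO ovaries. Pregranulosa markers, of the supporting cells of the ovary, were lower in the testes in 7 of 7, with a sum of 3.76 to 4.06 against 6.15 to 6.39 in control ovaries. *Smad4 (Stella)* ovaries summed to 6.12 to 6.39 and DKO ovaries to 6.25 to 6.48. *Foxl2*, which defines these cells, was not well above background in any testis. Of the 7 pregranulosa markers, 5 were well above background on every testis and all 7 on every ovary array. Markers that passed the filter only through the testes or only through the ovaries add no support to these counts. The summed supporting cell markers of all 12 arrays thus fell on the side of the labelled sex, though a sum rests mostly on its brightest genes. A single marker could differ: *Dmrt1*, of the Sertoli list, was higher in DKO ovaries than in testes by 2.06 (limma adjusted p = 0.00294).

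The adrenal gland forms beside the gonad and makes steroids with the same early enzymes, so its markers bear on *Star*, *Cyp11a1* and *Hsd3b1*. Of 6 adrenal cortex markers 3 could be tested and all 3 were higher in testes than in control ovaries: *Akr1b7* by 2.75, *Mc2r*, the corticotropin receptor, by 1.42, and *Mrap* by 1.16. Their sum ran from 1.70 to 1.81 in testes and -0.25 to 0.10 in control ovaries. The defining enzymes *Cyp21a1* and *Cyp11b2* were too dim to test. Adrenal medulla markers were also higher in 3 of 3 tested, *Th* at least 1.37-fold, *Chga* by 2.12 and *Pnmt* by 0.80, with sums of -0.08 to 0.33 in testes and -2.06 to -1.36 in control ovaries, while *Dbh* was too dim. *Th* was well above background on 3 testes, 0 control ovaries and 1 DKO ovary. The filter thus favoured a higher testis level for *Th*, and it adds no support to that count. Fetal testes are known to express some of the cortical genes themselves. The part of adrenal tissue in the testis levels was not tested.

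**Figure D5:**
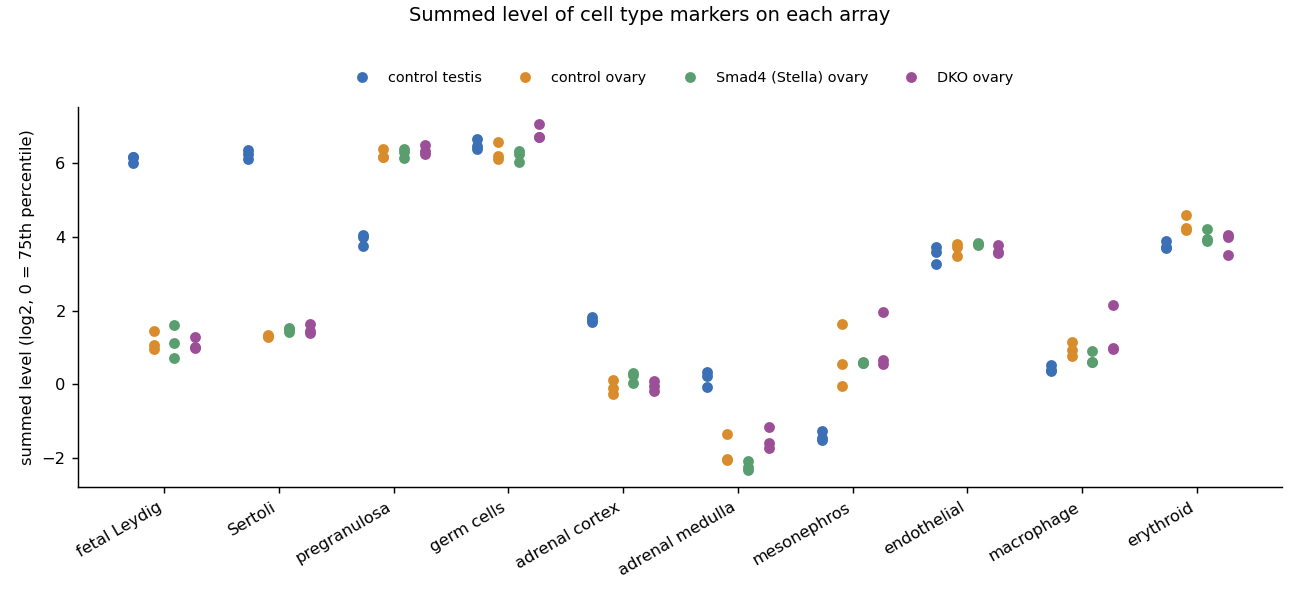
Summed level of each of 10 marker lists on each array (log2 of the sum of relative intensities), with 1 point an array and colours for the 4 groups. The fetal Leydig list, which holds 5 of the genes described here, runs from 5.99 to 6.17 in testes and from 0.71 to 1.61 over the ovaries, and the Sertoli and pregranulosa lists separate testes from ovaries in opposite directions. Sums are of unlogged levels, so the brightest gene weighs most. In the ovaries this was Hsd3b1 (0.44 to 1.45) for fetal Leydig and Rspo1 (control ovary mean 5.96) for pregranulosa.

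Of 6 markers of germ cells of both sexes, 3 were called higher in DKO than in control ovaries, *Dppa3* by 2.33, *Tdrd1* by 1.38 and *Kit* by 1.20, while *Ddx4*, *Dazl* and *Mael* differed by 0.14, -0.08 and 0.03. *Dppa3* and *Tdrd1* were also higher in testes than in control ovaries, by 2.34 and 1.57. The sum of the 6 ran from 6.69 to 7.04 in DKO, 6.11 to 6.57 in control and 6.04 to 6.32 in *Smad4 (Stella)* ovaries. Of the Sertoli list 1 of 10 was called, *Dmrt1* by 3.27, a gene that male germ cells express as well. Calls in other lists were *Cd68* (macrophage) at 0.72, *Lhx1* (mesonephros) at 1.54, 2 erythroid genes that were lower, and *Th*, which was well above background in 1 of 3 DKO and in no control ovary, so that no fold is given. The macrophage sum was 2.15, 0.97 and 0.97 in the DKO ovaries against 0.76 to 1.14 in control ovaries. No pregranulosa, adrenal cortex or endothelial marker was called between DKO and control ovaries. The part of these cells in the levels of *Cyp19a1*, *Nr5a2* and the other called pathway genes was not tested.

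The genes whose pattern lay closest to each steroid gene were found as those with the smallest root mean square difference over the 12 arrays, each gene centred on its own mean. The steroid genes themselves were left out of this search, so they were not ranked against each other. This is a description over arrays that share the testis-ovary contrast. *Cyp17a1* had *Ptgds* (0.21), *Hsd17b1* (0.29) and *Serpina5* (0.31), and *Hsd3b1* had *Hao2* (0.20), *Bcan* (0.28) and *Defb19* (0.36). *Star* had *Jak3* (0.27), here the mean of the 3 probes of which 2 list *Insl3*, then *Cyp26b1* and *Prokr2* (both 0.31). *Lhcgr* had *Ephx1* (0.42), *Rasgrf2* (0.45) and *Tafa2* (0.46). *Cyp11a1* and *Hsd17b3*, both at background in the ovaries, shared *Clps* (0.50 and 0.63) and the Y-linked *Rbmy* (0.64 and 0.56) among their nearest genes. *Cyp11a1* had the Y-linked *Ube1y1* (0.73) as the other, and *Hsd17b3* had *Hsd17b1* (0.58). *Nr5a1*, with the smallest difference, had the closest neighbours of all: *Samd1* (0.14), *Pygo2* (0.16) and the transcript NAP122883-1 (0.16).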

How the data were processed

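Arrays of 12 gonads (Agilent Whole Mouse Genome, one colour, Cy3) were scanned and read by the authors with Agilent Feature Extraction 11.0.1.1, per the file headers. The deposited scanner files hold processed intensity values, already background-subtracted by the authors. The table of the whole series holds the same intensity values within 1% for all spots, neither scaled nor logged. Control spots and outlier flags were removed, log2 was taken and each array's 75th percentile over non-control spots subtracted. Spots of a probe and probes of a gene were averaged. A probe was kept if all arrays of some group had it well above background (27323 of 41174). Symbols came from the array, updated by accession for 27050 probes, and members kept the array's name. All 12 arrays entered a limma model (limma 3.58.1, R 4.3.3) with 1 mean per group, without a block, and Benjamini-Hochberg adjustment over 18853 genes. Per list and comparison, at most the 4 called genes with the largest change are named. Slides came from the scanner headers. Nothing says whether samples shared a litter, so p-values measure the spread between these samples. The fit was tested on simulated data. Some list genes are not reported here by name. Alternatives were the deposited table, normexp (offset 50), quantile scaling, the brightest probe, no dim filter, 2-fold, only the groups compared, a t-test, slide and replicate blocks, and leaving out each array. The members and lists were chosen with earlier results of these data known.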

Additional observations from a re-analysis of the deposited data

How the results depend on the processing

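The 7 calls of each comparison with the testes remained under leaving out each array in turn, and the sign of none of the 7 turned under any alternative. Between the ovaries, values lay near 0 and signs turned in 13 of 105 refits of DKO against control, 9 of 98 of *Smad4 (Stella)* against control and 19 of 105 of DKO against *Smad4 (Stella)* ovaries. The 1 call of DKO against *Smad4 (Stella)* ovaries, *Star*, became 0 with the unscaled deposited table, normexp, the brightest probe, no dim filter, a 2-fold limit, only the groups compared, a t-test after Benjamini-Hochberg and each probe as a feature (chosen after seeing the data), and between 0 and 1 members were called on leaving out an array. *Star* reversed with normexp, at 0.21. The cause was not tested. DKO against control ovaries gave 0 to 1 calls on leaving out an array, and 2 within slide 2 counted by size alone, *Cyp11a1* and *Hsd17b3*, both at background. *Lhcgr* (testis against control ovary 1.71, adjusted p = 0.0598) and *Nr5a1* lost calls against testes in some of the normexp, deposited-table and slide-block fits.

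Same-numbered samples of different groups were not treated as paired. Of 18 pairs, 2 correlated above 0.1, and the correlations of their deviations from the group means ran from -0.18 to 0.15. Such correlations cannot show whether samples shared a litter. With the replicate number as a block the calls stayed at 7 against testes, 0 for both mutants against control ovaries and 1 for DKO against *Smad4 (Stella)* ovaries (*Star* adjusted p = 0.0432).

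Probes at background limit *Cyp11a1*, *Hsd17b3* and *Lhcgr* in ovaries, and normexp with its offset compresses such low values.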
